A study of Arabidopsis thaliana and Marchantia polymorpha and Mesotaenium endlicherianum with 120 samples.

Results

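Seedlings of Col-0, the standard laboratory accession of Arabidopsis thaliana, were compared between 24 °C and 16 °C in dim continuous white light. The comparison takes the 3 libraries labelled for each temperature. These are 6 of the 48 Arabidopsis libraries and of the 120 libraries of 4 organisms in the series. No gene was chosen by its value to enter the comparison, whereas many genes named below were. All 32833 genes of the count table entered; 25599 had a count in the 6 libraries and 22828 were tested. Every seedling was 7 days old at harvest, had spent its opening 2 days at 20 °C under 100 µmol photons per square metre per second, and was then kept for 5 days at 24 °C or 16 °C under 10 µmol, called light 10 here. The labels describe whole seedlings of the Col-0 genotype, with no transgene, and the study asks how plants combine light and temperature. Other libraries used for reference are Col-0 at the same temperatures for the same 5 days under 100 µmol (light 100), and the lines labelled Atpif4-2, Atphyb-9 and Athy5-2 at light 10, named for the genes PIF4, PHYB and HY5.

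Arabidopsis reads ambient temperature partly through phytochrome B, a red-light receptor whose active form reverts faster in warmth, and partly through the growth-promoting transcription factor PIF4, which phytochrome B restrains. PIF4 acts on auxin genes and drives elongation of the hypocotyl and petioles, while HY5 and its partners promote seedling greening in light. Cool but non-freezing temperature induces CBF transcription factors and the COR proteins that protect membranes, and it also alters lipid desaturation, starch turnover and pigments.

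The 6 libraries held 36137509 to 43279739 counts. Between replicates, log2 CPM over the tested genes correlated at 0.955 to 0.978 (Pearson's r across genes, which are not independent replicates). The main axis of a principal component analysis, with 42.2% of the variance, separated the temperatures, and the next axis, with 22.5%, set 16 °C replicate 1 at 72.4 against -34.2 and -55.3 for the other 16 °C libraries. Of 13044 genes with a mean of at least 5 CPM, 255 differed more than 3-fold among the 16 °C replicates and 28 among the 24 °C replicates; 233 of the 255 were highest in 16 °C replicate 1. Nuclear rRNA took 4.90% to 9.0% of counts at 16 °C and 1.81% to 3.99% at 24 °C, and plastid-encoded genes took 3.81% to 5.76% and 1.99% to 3.31%. The part of these shares in the results was not tested beyond fits with the rRNA share as a covariate or without those genes. These called 5354 and 5226 genes. Of the 5213 genes called without the covariate, the covariate fit kept 4557 and lost 656, and it added 797. In the 6 libraries the rRNA share did not overlap between the temperatures, so that the covariate differs with temperature. Leaf, guard cell and root markers were all detected; of 6 flower and pollen markers, AG and VGD1 were at 0 in all 6 libraries. Of 14 root markers, which include IRT1, 1 was called higher and 1 lower (median -0.07). Their summed level was 1815 to 1993 CPM at 16 °C and 2158 to 2366 CPM at 24 °C. Of 10 leaf and guard cell markers, which include LHCB1.3, RBCS1A and RCA, 1 was called higher and 2 lower (median -0.19). Their summed level was 108120 to 119200 CPM at 16 °C and 73258 to 78254 CPM at 24 °C. The called shares were 14.3% and 30%, beside 22.8% of all tested genes. Such sums rest mostly on a few abundant members. At light 100 and 16 °C the root marker PYK10 measured 1948 to 2034 CPM and IRT1 74.1 to 96.8 CPM. RBCS1A measured 49215 to 54708 CPM there. In bulk seedlings, fewer cells of a type and less RNA per cell cannot be told apart.

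Warmth raised 2610 genes (11.4%) and lowered 2603 (11.4%) of the 22828 tested, 22.8% in all, at an edgeR adjusted p under 0.05. All log2 changes are 24 °C over 16 °C, and levels are CPM, counts scaled to sequencing depth with TMM factors. The median change over all tested genes was -0.0021 on the log2 scale, the median of the higher calls 0.64 and of the lower calls -0.67. By more than 3 log2 units, 157 genes fell and 87 rose. The replicates of the temperatures did not overlap for 9108 genes (39.9%; 20.4% higher and 19.4% lower). Across 35 functional lists the medians ran from -2.27 for aliphatic glucosinolate synthesis to 2.23 for the 4 flower and pollen markers tested. The latter list was of low count, with a summed level of 0.417 to 1.09 CPM at 16 °C and 3.09 to 3.65 CPM at 24 °C.

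**Figure D1:**
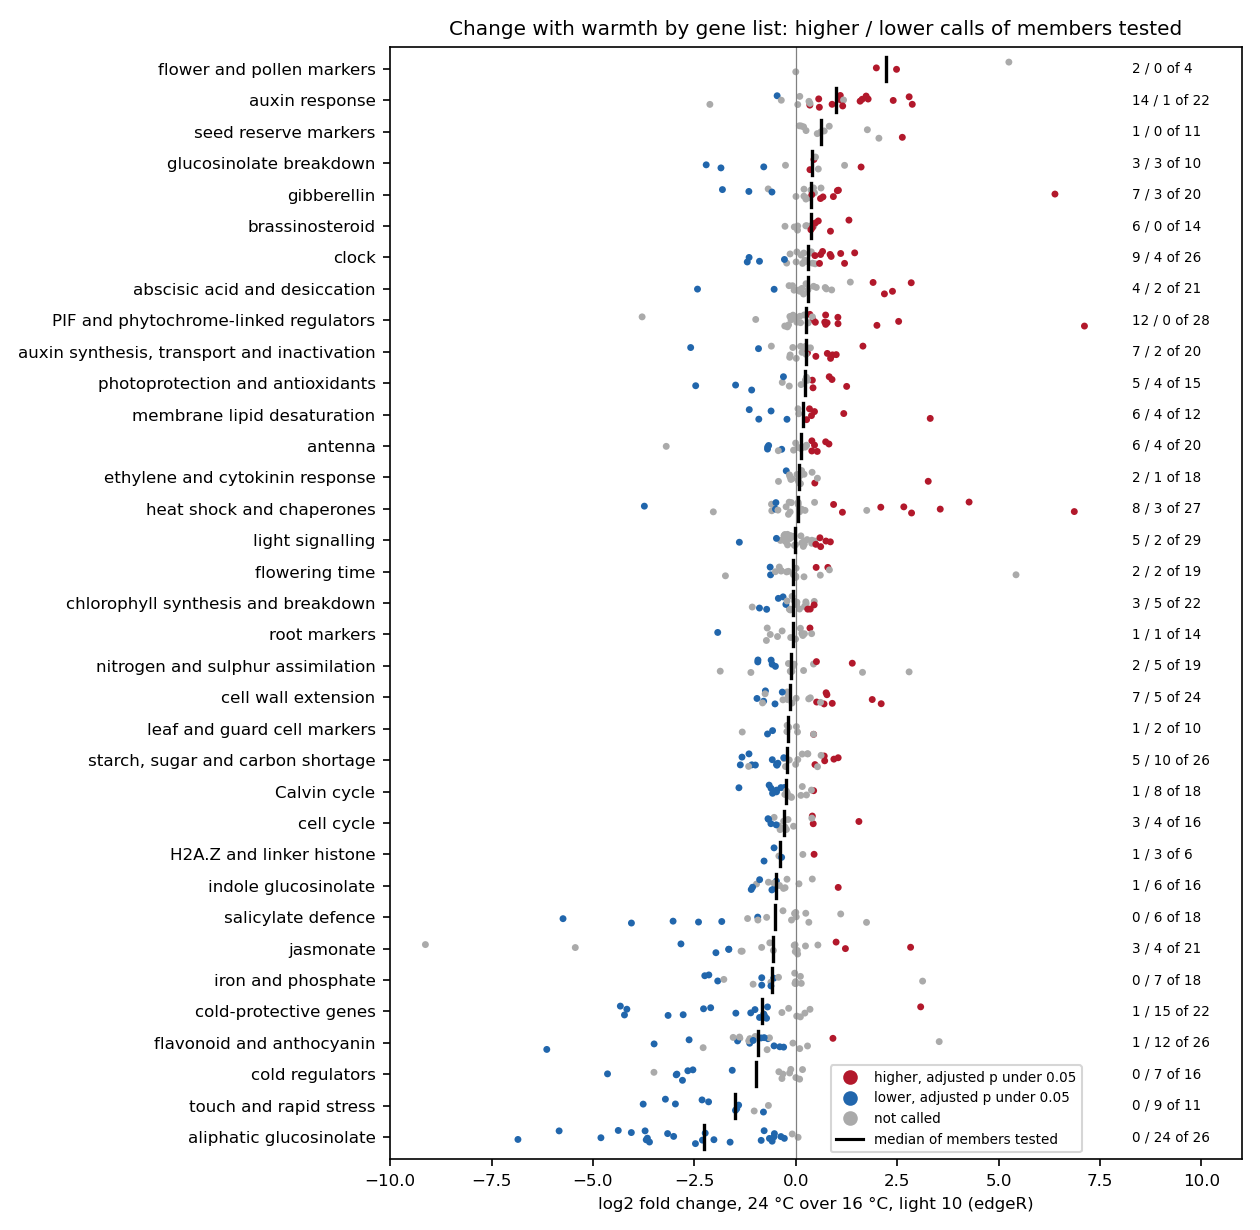
Log2 fold change of every tested member of 35 gene lists (x axis, 24 °C over 16 °C at light 10; rows are lists ordered by median). Red and blue points are genes called higher and lower, grey points were not called, and black bars are list medians; aliphatic glucosinolate genes had 24 lower and 0 higher calls of 26, and auxin response genes had 14 higher and 1 lower of 22.

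Cold-protective genes, the COR, KIN, LTI and dehydrin families that stabilise membranes and proteins, stood mostly lower in the warm seedlings. Of 22 members tested, 15 fell and 1 rose (11.4% of all genes in each direction), with a median of -0.84 against -0.0021 for all genes. The groups did not overlap for 19 of the 22 (39.9% of all genes). LTI78, the stress-responsive gene also called RD29A, measured 53.5, 59.9 and 59.0 CPM at 16 °C and 6.58, 5.92 and 6.94 CPM at 24 °C, a log2 change of -3.15 ± 0.17 (SE; edgeR adjusted p = 5.9e-18). Its neighbour LTI65, also called RD29B and known for its response to abscisic acid, moved the other way. LTI65 measured 1.4, 2.12 and 2.11 CPM at 16 °C and 15.9, 15.8 and 15.9 CPM at 24 °C (3.08 ± 0.37, edgeR adjusted p = 4.5e-08). In neither gene did a 16 °C library reach the range of the 24 °C libraries.

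The pair lies on chromosome 5 on the plus strand, LTI65 at chr5:21237021-21239531 and LTI78 at chr5:21240717-21243644, with 1185 bases and no annotated gene between them (RefSeq, TAIR10.1; the deposited table names no build, so positions are those of the same gene identifiers). Their promoters are shown because the neighbours changed in opposite directions, with that of COR15A, a chloroplast protein that protects membranes in the cold and the lowest member of the list at -4.33 ± 0.38. Each stretch is the 250 bases before the annotated gene start, 5′ to 3′ on the gene's strand, with capitals marking CCGAC, the core bound by CBF factors, and CACGTG, the G-box, on either strand.
LTI78 (chr5:21240467-21240716, plus): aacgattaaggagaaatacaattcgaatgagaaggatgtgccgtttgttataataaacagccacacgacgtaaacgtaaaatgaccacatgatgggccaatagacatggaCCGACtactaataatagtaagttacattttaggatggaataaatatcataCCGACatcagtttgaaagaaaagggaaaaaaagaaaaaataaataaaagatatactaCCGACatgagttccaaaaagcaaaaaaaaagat
LTI65 (chr5:21236771-21237020, plus): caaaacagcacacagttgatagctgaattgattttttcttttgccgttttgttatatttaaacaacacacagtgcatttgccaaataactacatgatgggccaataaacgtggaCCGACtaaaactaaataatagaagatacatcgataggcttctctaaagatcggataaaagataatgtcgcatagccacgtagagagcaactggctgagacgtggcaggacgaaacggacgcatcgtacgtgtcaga
COR15A (chr2:17712331-17712580, minus): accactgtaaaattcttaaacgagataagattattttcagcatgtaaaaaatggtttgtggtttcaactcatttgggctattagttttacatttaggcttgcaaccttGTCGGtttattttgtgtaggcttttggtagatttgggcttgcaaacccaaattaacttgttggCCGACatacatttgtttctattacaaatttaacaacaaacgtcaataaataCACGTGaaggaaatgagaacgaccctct
The LTI78 stretch holds 3 CCGAC matches, 140, 90 and 33 bases before the gene start, the LTI65 stretch holds 1 at 136 bases, and the COR15A stretch holds 2 of these and 1 G-box. In windows of 300 bases, reaching 50 bases past the gene start, CCGAC occurred in 7 of the 22 cold-protective genes (31.8%). It occurred in 16% of all 22604 tested genes with a window, in 16% of the genes called higher and in 16% of those called lower. Heat shock (8 of 27, 29.6%) and clock genes (7 of 26, 26.9%) held it about as often as the cold-protective list. The shares were 17.9% for PIF and phytochrome-linked, 7.69% for aliphatic glucosinolate and 3.85% for starch and sugar genes. Genes called higher by more than 2 log2 units had 19.9%, and those called lower by more than 2 had 13.8%. A match describes the letters only and is not a bound site.

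Other members of the cold-protective list filled in the pattern. COR413-IM1, a chloroplast inner membrane protein of the cold response, measured 82.8, 76.4 and 69.9 CPM at 16 °C and 14, 18.1 and 15.2 CPM at 24 °C (-2.27 ± 0.17, edgeR adjusted p = 3.0e-13). COR413-IM2, COR413-PM1, the dehydrins COR47, ERD10 and LTI30, the galactinol synthase GOLS3, which feeds raffinose synthesis, the RNA-binding protein GRP7 and the clock-linked COR27 were also lower, by 0.70 to 2.78 log2 units. KIN1 (-4.22) and KIN2 (-2.1), near-identical neighbours 892 bases apart, fell together, and COR15B lies 7 bases from COR15A, so that counts of each pair may be shared. RCI2A, RCI2B, ERD14, CSP1, CSP2 and GRP8 did not pass the test.

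Desaturases of membrane lipids split by enzyme. Of 12 genes tested, 6 rose and 4 fell, with a median of 0.17. FAD2, the endoplasmic reticulum desaturase that makes linoleate, measured 1709.6, 1453 and 1447 CPM at 16 °C and 3315, 3939 and 3207 CPM at 24 °C (1.18 ± 0.16, edgeR adjusted p = 3.2e-07). FAD8, the plastid desaturase of trienoic fatty acids whose transcript is known to be favoured by cold, measured 92.6, 79.7 and 81.0 CPM against 40.3, 34.3 and 39.8 CPM (-1.15 ± 0.11, edgeR adjusted p = 5.3e-11). For both genes every 24 °C library lay on the same side of every 16 °C library. ADS2, a desaturase required for chilling tolerance, fell by 0.91, and SFD1 and SFR2, which act on galactolipid supply and on galactolipid remodelling in freezing, fell by 0.61 and 0.22. The largest rise of the list was that of the desaturase ADS1 (AT1G06080), at 3.31. FAD6, FAB2, FAD4 and FAD3 rose by 0.27 to 0.46, while FAD5 and FAD7 did not pass.

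The upstream cold regulators and the rapid-stress genes were lower on average but scattered widely among the 16 °C replicates. Of 16 cold regulators 7 were called lower and 0 higher (median -0.99), and of 11 touch and rapid-stress genes 9 were called lower and 0 higher (median -1.49). CBF1, which activates COR genes, measured 17.9, 9.13 and 2.77 CPM at 16 °C and 0.399, 0.281 and 0.500 CPM at 24 °C (-4.64 ± 0.99, edgeR adjusted p = 0.00066). CBF2, a near-identical tandem copy, measured 32.6, 17.9 and 4.0 CPM against 2.57, 1.45 and 3.02 CPM (-2.95 ± 0.70). CBF3 measured 1.66, 1.43 and 1.13 CPM against 0.149, 0.141 and 0.304 CPM (-2.79 ± 0.70). All 3 CBF genes had every 16 °C library above every 24 °C library, but CBF1 spanned 6.45-fold among the 16 °C replicates. ERF5, an ethylene-response factor induced within minutes of stress, measured 108, 36.1 and 13.3 CPM against 5.31, 5.13 and 9.59 CPM (-2.97 ± 0.59). TCH2, a calmodulin-like gene induced by touch, measured 64.8, 38.9 and 26.1 CPM against 16.3, 14.8 and 17.8 CPM (-1.41 ± 0.30). ZAT10, a zinc-finger repressor of stress genes, measured 333, 130 and 45.5 CPM against 11.1, 9.04 and 46.4 CPM, so that its groups overlapped.

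Without 16 °C replicate 1, 3 touch genes and 4 cold regulators were called lower, without 24 °C replicate 2 also 4 cold regulators, and in a fit of the 6 libraries alone 0 touch genes and 2 cold regulators were. The calls for CBF2, ERF5, TCH2 and ZAT12 were lost in the fit of the 6 libraries alone, those for SZF1, WRKY40, ERF6, ZAT10 and MYB15 also without 16 °C replicate 1, and those for ZAT10 and MYB15 also without 24 °C replicate 1 or 2. Summed over the touch list the 16 °C libraries held 1245, 529 and 259 CPM and the 24 °C libraries 190 to 281 CPM. At light 100 CBF1, CBF2, CBF3, ERF5, TCH2, ZAT10, SZF1 and WRKY40 were again highest in the library labelled 16 °C replicate 1 and lowest in replicate 3, with ERF5 at 73.5, 49.1 and 16.8 CPM and CBF1 at 18, 11.1 and 0.907 CPM. The cause of this spread was not tested. ICE1, the CAMTA factors and HOS1, which control CBF transcription or ICE1 stability, were not called.

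**Figure D2:**
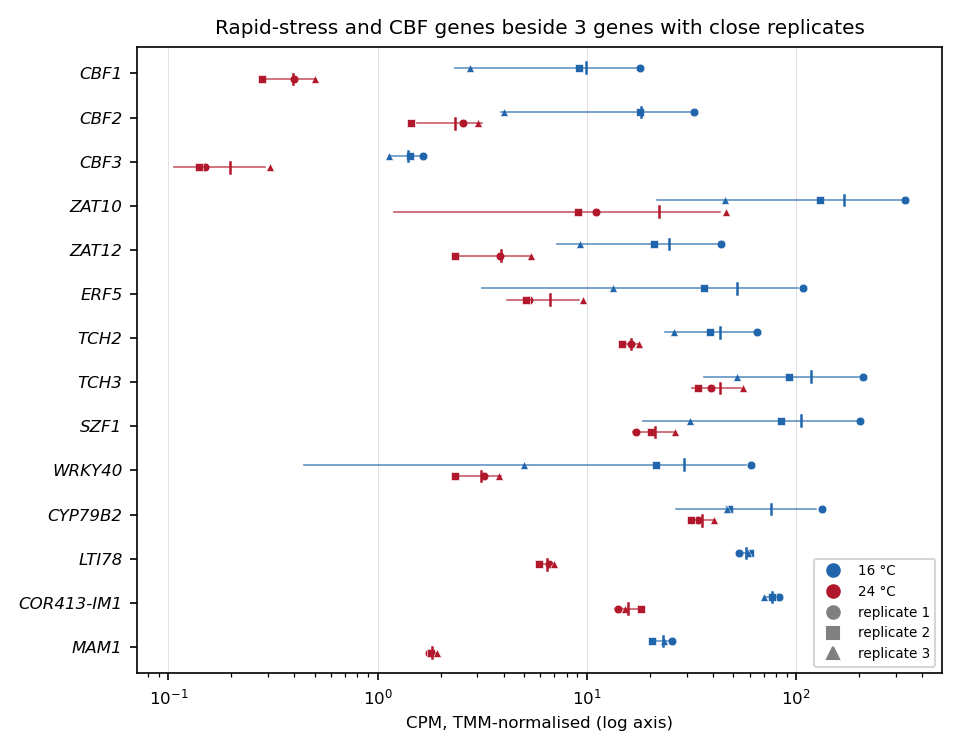
CPM (x axis, log scale) of 11 stress and defence genes and of LTI78, COR413-IM1 and MAM1 in each library; marker shape is the replicate, blue 16 °C and red 24 °C, with bars at the mean ± SD of 3 replicates. CBF1 at 16 °C ran from 2.77 to 17.9 CPM and ERF5 from 13.3 to 108 CPM, whereas LTI78 at 16 °C ran from 53.5 to 59.9 CPM.

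Regulators around PIF4 and phytochrome moved upward. Of 28 members 12 rose and 0 fell, with a median of 0.26. HAT1, a shade-responsive homeodomain factor, measured 10.3, 9.76 and 11.2 CPM at 16 °C and 22.6, 19.5 and 21.9 CPM at 24 °C (1.04 ± 0.12, edgeR adjusted p = 1.7e-08). PIF5, the closest relative of PIF4, rose by 0.74 ± 0.11, and PIF1 by 0.43. IBH1, which restrains cell elongation, rose by 1.04, as did the homeodomain factors HAT2 (0.77) and ATHB2 (0.71), the bHLH factor BEE2 (0.48) and UNE10 (0.35). PRE5, a small elongation-promoting bHLH protein, was at 0 in all 16 °C libraries and had 52 counts over the 24 °C libraries, at least 14.6-fold higher against a floor of 3 counts over the group. PIF3, PIF7, PIL1, PAR1 and PAR2 did not pass. PHYB had a log2 change of -0.07 ± 0.10 and HY5 of -0.13 ± 0.17, with edgeR adjusted p of 0.69 and 0.63.

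Of 29 light signalling genes 5 rose and 2 fell (median -0.01), a called share of 24.1% beside 22.8% of all genes; with the 6 libraries alone 6 were called lower. BBX24, which dampens HY5 activity, measured 184, 166 and 167 CPM at 16 °C and 316, 318 and 299 CPM at 24 °C (0.85 ± 0.10, edgeR adjusted p = 4.3e-08). BBX25 (0.59), BBX28 (0.49), BBX21 (0.74) and RUP2 (0.61), a repressor of the UV-B receptor, also rose. BBX22, which promotes greening, fell by 0.48 and BBX29 by 1.39. The replicates of BBX24 did not overlap between temperatures.

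Auxin response genes had the highest median of the hormone lists. Of 22 tested 14 rose and 1 fell, with a median of 1.00. SAUR22, a small auxin-induced promoter of cell expansion, measured 0.552, 0.606 and 0.809 CPM at 16 °C and 5.58, 4.54 and 4.41 CPM at 24 °C (2.87 ± 0.50, edgeR adjusted p = 4.5e-05). SAUR19, SAUR20, SAUR21, SAUR23 and SAUR24 rose by 1.16 to 2.40; these copies are close in sequence and may share counts. IAA29, an auxin-response repressor and known PIF target, measured 1.71, 1.70 and 1.72 CPM against 7.37, 4.96 and 5.35 CPM (1.78 ± 0.37, edgeR adjusted p = 0.00045). IAA1 (1.11), IAA2 (1.1) and IAA16 (0.56) also rose, and IAA17 was the member that fell (-0.46).

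Among 20 genes of auxin synthesis, transport and inactivation, 7 rose and 2 fell (median 0.25). Within the synthesis route the steps diverged: TAA1, the aminotransferase that starts it, fell from 12.1, 13.9 and 14.2 CPM to 6.90, 7.10 and 7.26 CPM (-0.92 ± 0.12, edgeR adjusted p = 1.6e-07). YUC8, a flavin monooxygenase of the next step and a PIF4 target, rose from 1.4, 1.97 and 1.27 CPM to 4.68, 5.34 and 4.57 CPM (1.66 ± 0.30, edgeR adjusted p = 7.1e-05). YUC2 rose by 0.91 and YUC5 fell from 5.29, 3.34 and 1.23 CPM to 0.374, 0.703 and 0.544 CPM. The conjugating enzymes GH3.2, GH3.5 and GH3.17, which inactivate auxin, rose by 0.49 to 1.00. PIN3, an efflux carrier for lateral auxin flow, measured 204, 182 and 176 CPM at 16 °C and 312, 337 and 313 CPM at 24 °C (0.78 ± 0.13), and the influx carrier AUX1 rose by 0.29.

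Gibberellin genes had 7 higher and 3 lower calls of 20 tested (median 0.38). GA20OX1 (1.02) and GA20OX2 (0.93), which make gibberellin precursors, rose, as did the growth-repressing DELLA genes GAI (0.40), RGL2 (1.05) and RGL3 (0.67). GA20OX3 was at 0 in the 16 °C libraries and at 31 counts over the 24 °C libraries, at least 8.80-fold higher against the floor of 3 counts. GA3OX2, which completes active gibberellin, fell by 1.81 ± 0.31, and GA2OX6, which inactivates it, by 1.16. The calls for RGL2 and GA2OX6 were lost without 24 °C replicate 2 and without 16 °C replicate 1, respectively. Brassinosteroid genes had 6 higher and 0 lower calls of 14 (median 0.38): CPD, a synthesis enzyme, measured 114, 102 and 101 CPM against 200, 195 and 178 CPM (0.85 ± 0.09, edgeR adjusted p = 5.2e-09), and the receptor BRI1, its inhibitor BKI1, the kinase BIN2, the transcription factor BZR1 and the inactivating enzyme BAS1 rose by 0.37 to 1.31. The call for BIN2 was lost without 16 °C replicate 3, without 24 °C replicate 1 and with the rRNA covariate, and that for BZR1 in the fit of the 6 libraries alone.

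Of 18 ethylene and cytokinin genes 2 rose and 1 fell, led by ACS8, an ethylene precursor synthase. It measured 1.1, 0.455 and 0.270 CPM at 16 °C and 5.46, 6.09 and 5.89 CPM at 24 °C (3.26 ± 0.37, edgeR adjusted p = 1.1e-08). EIN3, the main ethylene transcription factor, rose by 0.47. The lower call, for the receptor ERS1 (-0.24), was lost when any of 5 libraries was left out, and the called share of the list was 16.7% beside 22.8% of all genes. Cell wall genes had 7 higher and 5 lower calls of 24 (median -0.14). XTH24, a xyloglucan hydrolase of expanding walls, measured 163, 101 and 111 CPM against 527, 465 and 393 CPM (1.88 ± 0.24, edgeR adjusted p = 2.6e-07). Family members went both ways, with EXPA4 (0.77), EXPA8 (0.70), XTH15 (0.75) and XTH17 (0.90) higher and EXPA11 (-0.79), EXPA15 (-0.96), XTH9 (-0.51) and XTH19 (-0.75) lower. CESA6, a cellulose synthase of the primary wall, fell by 0.33.

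**Figure D3:**
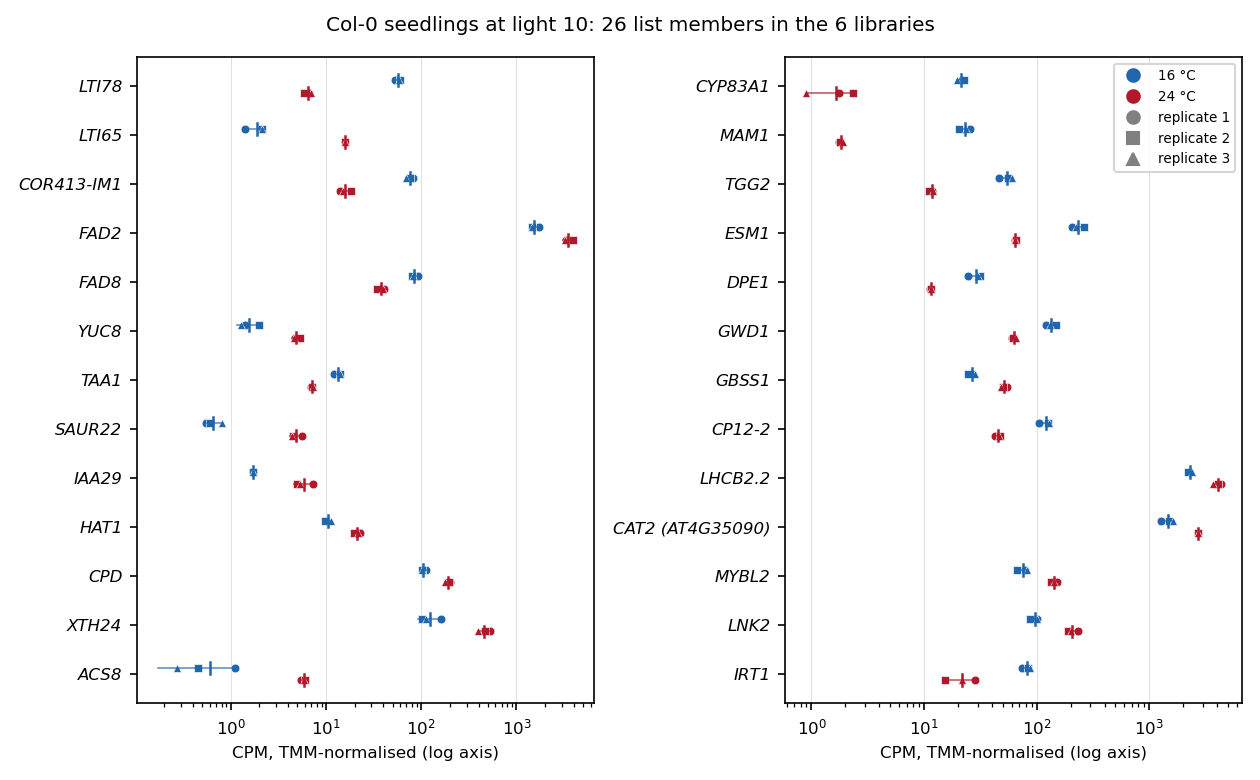
CPM (x axis, log scale) of 26 list members in each of the 6 libraries; blue is 16 °C and red 24 °C, marker shape is the replicate, and bars give the mean ± SD of 3 replicates. The groups did not overlap for any gene shown; LTI78 went from 53.5 to 59.9 CPM down to 5.92 to 6.94 CPM and its neighbour LTI65 from 1.4 to 2.12 CPM up to 15.8 to 15.9 CPM.

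Of 27 heat shock genes tested, 8 rose and 3 fell (median 0.06). The higher calls were 5 without 16 °C replicate 2, without 24 °C replicate 1 or with the 6 libraries alone. HSP70, a cytosolic chaperone of the heat response (AT3G12580), measured 50.5, 28.9 and 15.0 CPM at 16 °C and 139, 131 and 132 CPM at 24 °C (2.1 ± 0.37, edgeR adjusted p = 6.9e-05). HSP90.1, the inducible cytosolic HSP90, rose by 2.85 ± 0.41 while HSP90.2, a constitutive relative, fell by 0.50 ± 0.11. The small heat shock genes HSP17.4 (3.56) and HSP17.6A (2.66) rose from means of 0.126 and 0.267 CPM to 1.49 and 1.71 CPM, and the call for HSP17.4 was lost in the fit of the 6 libraries alone. HSFA2, an amplifier of the heat response, fell by 3.73 ± 1.02. HSP101, MBF1C and HSP70-1 did not pass. For HSP70 the 24 °C libraries lay between 131 and 139 CPM, while the 16 °C libraries spanned 3.36-fold, with replicate 1 highest.

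Clock genes went both ways. Of 26 tested 9 rose and 4 fell, with a median of 0.30. LNK2, a coactivator for the RVE8 class of morning factors, measured 101, 87.7 and 101 CPM at 16 °C and 233, 189 and 200 CPM at 24 °C (1.11 ± 0.16, edgeR adjusted p = 1.5e-06). LNK1 (0.87), RVE8 (0.85), RVE4 (0.61) and RVE1 (0.66), CDF1 (AT5G62430, 1.2) and CDF2 (0.58), repressors of flowering genes, and AT1G69570 (1.45) also rose. The genes that fell were PRR5 (-0.89) and PRR3 (-1.15), pseudo-response regulators, FKF1 (-1.2), a blue-light receptor that degrades CDF proteins, and GI (-0.28), its partner. CCA1, LHY, PRR7, PRR9, TOC1, ELF3, ELF4, LUX and ZTL did not pass. The seedlings were in continuous light and each group gives a single harvest, so that a change of level and a change of phase cannot be told apart. Flowering-time genes had 2 higher and 2 lower calls of 19, a share of 21.1% beside 22.8% of all genes: SVP (0.50) and FLC (0.79), repressors of flowering, rose, and FLM (-0.62) and MAF3 (-0.63) fell, MAF3 losing its call when any of 4 libraries was left out. FT, the mobile floral signal, was at 0 in all 6 libraries.

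The evening element AAAATATCT, a sequence through which clock factors of the CCA1 and RVE families act, occurred in the 300-base windows of 137 genes called lower (5.29%), of 55 called higher (2.11%) and of 2.92% of all genes with a window, counted on both strands. Promoters of 3 genes that hold it are shown, from a clock gene, a starch gene and the chloroplast envelope gene OEP6, which fell from 944, 1068 and 1086 CPM to 138, 169 and 170 CPM (-2.70 ± 0.13, edgeR adjusted p = 6.6e-19), with the element in capitals in the 250 bases before the gene start.
FKF1 (chr1:25508389-25508638, plus): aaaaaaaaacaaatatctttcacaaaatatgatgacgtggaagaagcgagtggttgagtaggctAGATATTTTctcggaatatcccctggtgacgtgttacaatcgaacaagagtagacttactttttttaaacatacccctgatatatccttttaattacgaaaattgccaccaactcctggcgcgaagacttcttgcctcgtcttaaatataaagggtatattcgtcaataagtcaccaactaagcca
OEP6 (chr3:23334035-23334284, minus): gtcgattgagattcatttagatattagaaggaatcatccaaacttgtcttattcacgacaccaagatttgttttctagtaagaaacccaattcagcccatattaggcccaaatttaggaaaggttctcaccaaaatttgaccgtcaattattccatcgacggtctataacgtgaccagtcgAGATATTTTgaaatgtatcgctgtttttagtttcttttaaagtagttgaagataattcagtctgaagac
PWD (AT5G26570; chr5:9261229-9261478, plus): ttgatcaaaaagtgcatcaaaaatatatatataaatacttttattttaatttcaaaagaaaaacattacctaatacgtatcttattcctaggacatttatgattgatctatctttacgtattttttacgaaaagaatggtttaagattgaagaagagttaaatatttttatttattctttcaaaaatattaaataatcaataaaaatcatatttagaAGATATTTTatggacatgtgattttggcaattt
The match lies 186 bases before the start of FKF1, 69 before that of OEP6 and 33 before that of PWD (AT5G26570). The evening element was present in 6 of 26 clock genes (23.1%), 5 of 22 cold-protective genes (22.7%) and 4 of 26 starch and sugar genes (15.4%). The other lists counted did not hold it: 0 of 26 aliphatic glucosinolate, 0 of 28 PIF and phytochrome-linked and 0 of 27 heat shock genes. The G-box occurred in 36 of 181 genes called higher by more than 2 log2 units (19.9%) and in 35 of 297 called lower by more than 2 (11.8%). It occurred in 11% of all genes called higher, in 9.73% of those called lower and in 8.53% of all genes. By list, 12 of 26 clock genes (46.2%) held it, and the other lists counted ran from 10.7% to 22.7%. The heat-shock unit GAANNTTC occurred in 8 of 27 heat shock genes (29.6%) and in 11.4% of all genes. These shares describe the letters in the windows.

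Aliphatic glucosinolate synthesis, which makes methionine-derived defence compounds, was the lowest list. Of 26 tested 24 fell and 0 rose, with a median of -2.27, and the groups did not overlap for 24. CYP83A1, which converts aldoximes in the core pathway, measured 21.6, 22.4 and 19.6 CPM at 16 °C and 1.74, 2.32 and 0.892 CPM at 24 °C (-3.69 ± 0.35, edgeR adjusted p = 1.6e-09). MAM1, which elongates the methionine side chain, measured 25.5, 20.5 and 23.4 CPM against 1.77, 1.80 and 1.91 CPM (-3.66 ± 0.38, edgeR adjusted p = 1.1e-08). BCAT4, which opens the chain-elongation cycle, measured 11.1, 5.73 and 5.05 CPM against 0.274, 0 and 0.109 CPM (-5.83 ± 0.70). Chain elongation by IPMI1 (-2.47), IPMI2 (-3.01) and IMD1 (-3.16) fell with them, whereas the late sulphotransferases SOT17 (-0.85) and SOT18 (-0.53) and the shared enzyme SUR1 (-0.65) fell less far. The activating factors differed in size of change: MYB29 fell by 3.72 ± 0.48 and MYB28, the main activator, measured 36.4, 37.4 and 39.4 CPM against 26.4, 24.5 and 26.9 CPM (-0.54 ± 0.12, edgeR adjusted p = 0.00092). FMOGS-OX2 and FMOGS-OX5 were the members not called.

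Indole glucosinolate genes, which use tryptophan, had 6 lower and 1 higher call of 16 (median -0.50). GSTF9, a glutathione transferase of the pathway, measured 601, 419 and 381 CPM at 16 °C and 222, 227 and 220 CPM at 24 °C (-1.07 ± 0.16), and its close copy GSTF10 fell by 0.89. CYP79B2, which starts the pathway, measured 132, 47.7 and 47.0 CPM against 34.1, 31.5 and 40.5 CPM, and its call was lost without 16 °C replicate 1. Without that library 2 members of the list were called lower, and without 24 °C replicate 1 or 2, 3 were. The genes that break glucosinolates down moved separately. TGG2, a myrosinase of guard cells and myrosin cells, measured 45.9, 55.3 and 60.6 CPM against 11.8, 11.1 and 12 CPM (-2.21 ± 0.17, edgeR adjusted p = 1.3e-12), while TGG1 had a log2 change of -0.25 and was not called. ESM1, which favours isothiocyanates over nitriles, measured 207, 265 and 225 CPM against 64.0, 65.8 and 63.9 CPM (-1.84 ± 0.14). ESP (AT1G54040) and NSP1, which direct hydrolysis to nitriles, rose by 1.61 and 0.45.

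Of 21 jasmonate genes 3 rose and 4 fell (median -0.55). Without 16 °C replicate 1 the median was 0 and 2 were called lower, and with the 6 libraries alone the median was -0.06 and also 2 were. AOC2, an allene oxide cyclase of jasmonate synthesis, measured 70.1, 57.8 and 49.5 CPM at 16 °C and 18.9, 18 and 19.9 CPM at 24 °C (-1.65 ± 0.15, edgeR adjusted p = 7.0e-11). LOX2, the plastid lipoxygenase upstream of it, measured 53.7, 40.9 and 42.2 CPM against 12.7, 14.7 and 16.1 CPM (-1.65 ± 0.26). JAZ9, a jasmonate repressor, rose by 0.99 and ST2A, which inactivates a jasmonate precursor, by 1.22. JAZ1 fell by 1.97, and its call was lost without 16 °C replicate 1. MYC2 had 4.97 CPM in 16 °C replicate 1 and 0 in the other 5 libraries, so that only its listing at 0 can be given. Of 18 salicylate genes 6 fell and 0 rose, and without 16 °C replicate 1, 24 °C replicate 1 or 24 °C replicate 2 the count was 2, with the 6 libraries alone 1; EDS5, a salicylate exporter of the chloroplast, fell from 5.32, 4.64 and 4.22 CPM to 2.22, 2.58 and 2.59 CPM (-0.94 ± 0.21). Of 21 abscisic acid and desiccation genes 4 rose and 2 fell, a called share of 28.6% beside 22.8% of all genes. The phosphatase HAI1, induced by abscisic acid, went from 0.639, 0.455 and 0.441 CPM to 2.62, 2.01 and 2.37 CPM (2.18 ± 0.36). ABI1, another phosphatase of the pathway, fell by 0.53.

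Flavonoid and anthocyanin genes had 12 lower and 1 higher call of 26 (median -0.93). The lower calls were 7 without 24 °C replicate 1, 8 without 16 °C replicate 3 and 8 with the 6 libraries alone. PAL1, which opens phenylpropanoid synthesis, measured 176, 134 and 147 CPM at 16 °C and 89.6, 94.3 and 100 CPM at 24 °C (-0.69 ± 0.14, edgeR adjusted p = 0.00019). The anthocyanin regulators PAP1 (AT1G56650; -3.49 ± 1.05) and EGL3 (-1.05 ± 0.34) fell, and TT8 had 22 counts over the 16 °C libraries and 0 over the 24 °C libraries, at least 8.79-fold lower against 3 counts. MYBL2, a repressor of anthocyanin synthesis, was the member that rose, from 78.3, 66.2 and 82.2 CPM to 152, 133 and 143 CPM (0.92 ± 0.16, edgeR adjusted p = 2.3e-05). The replicates of PAL1 and MYBL2 did not overlap between temperatures. C4H, TT4 and DFR did not pass.

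Within the light-harvesting antenna, 3 LHCB1 genes were called lower and the LHCB2 genes higher. Of 20 antenna genes 6 rose and 4 fell (median 0.14); without 16 °C replicate 2 the higher calls were 2, without 24 °C replicate 1 3 and without 16 °C replicate 1 4. The 3 LHCB1 genes called, LHCB1.1 (-0.67), LHCB1.3 (-0.70) and LHCB1.4 (-0.69), were lower, with LHCB1.3 at 67641, 73823 and 68050.0 CPM at 16 °C and 44340.0, 43557 and 41353 CPM at 24 °C. The LHCB2 genes, which encode the partner subunit of the same trimers, were higher: LHCB2.2 measured 2256, 2200.4 and 2406 CPM against 4335, 4049.9 and 3709 CPM (0.82 ± 0.17, edgeR adjusted p = 0.00026), with LHCB2.1 at 0.74 and LHCB2.3 at 0.46. LHCB3, LHCB4.2 and LHCB6, further photosystem II antenna proteins, rose by 0.40 to 0.53, and LHCA1 to LHCA4 of photosystem I were not called. Copies within LHCB1 and LHCB2 are close in sequence, so that reads may be split between them; LHCB1.5 ran from 0 to 15524 CPM among the 16 °C libraries.

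Chlorophyll genes had 3 higher and 5 lower calls of 22, led by PORB, which reduces protochlorophyllide in light, at 396, 458 and 478 CPM against 228, 244 and 243 CPM (-0.90 ± 0.09, edgeR adjusted p = 1.6e-09). NYC1, which degrades chlorophyll b, fell by 0.72, and CAO (AT1G44446), which makes it, rose by 0.45. Photoprotection genes had 5 higher and 4 lower calls of 15. NPQ1, violaxanthin de-epoxidase, measured 53.2, 76.8 and 74.8 CPM at 16 °C and 31.7, 30.9 and 33.8 CPM at 24 °C (-1.09 ± 0.11), while ZEP, which runs the reverse reaction, rose by 0.42. CAT2 (AT4G35090), the leaf catalase, measured 1258, 1508 and 1619 CPM against 2718, 2717 and 2708 CPM (0.89 ± 0.12, edgeR adjusted p = 2.9e-07), and the copper superoxide dismutases CSD1 and CSD2 rose by 0.82 and 1.25. ELIP1 and ELIP2, early light-induced proteins, fell by 2.47 and 1.48.

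Calvin cycle genes had more lower than higher calls: 8 of 18 fell and 1 rose (median -0.25). RBCS1A, a Rubisco small subunit, measured 34102, 38632 and 38475 CPM at 16 °C and 25543, 25420.0 and 23821 CPM at 24 °C (-0.57 ± 0.15), and RBCS1B fell by 0.48. CP12-2, a redox linker that inactivates 2 enzymes of the cycle, had the largest fall, from 105, 126 and 129 CPM to 42.9, 47.0 and 46.5 CPM (-1.4 ± 0.14, edgeR adjusted p = 8.2e-10). RCA, Rubisco activase, was the member that rose, from 4022, 4500.3 and 4925 CPM to 6186, 6078 and 5977 CPM (0.44 ± 0.10). TKL1, HCEF1, GAPA, PGK1 and SBPASE fell by 0.28 to 0.66.

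Most of the calls among starch and sugar genes were lower. Of 26 starch, sugar and carbon-shortage genes 10 fell and 5 rose (median -0.21). DPE1, which recycles maltotriose in the chloroplast, measured 24.7, 31.3 and 30.3 CPM at 16 °C and 11.3, 11.6 and 11.5 CPM at 24 °C (-1.33 ± 0.11, edgeR adjusted p = 1.3e-11). PWD (AT5G26570), which phosphorylates starch, measured 88.2, 84.7 and 94.1 CPM against 37.4, 43.5 and 39.0 CPM (-1.15 ± 0.11), and GWD1, which acts before it, 121, 147 and 130 CPM against 60.8, 62.0 and 65.2 CPM (-1.08 ± 0.13). The replicates of these 3 genes did not overlap between temperatures. SEX4, the phosphoglucan phosphatase, fell by 1.37, BAM3 (AT4G17090), the chloroplast beta-amylase, by 1.00, and the maltose exporter MEX1 and the cytosolic DPE2 by 0.46 and 0.44. Synthesis was mixed: APS1 (AT5G48300) and APL1 of ADP-glucose pyrophosphorylase and the synthase SS1 fell by 0.30 to 0.58, and GBSS1, which makes amylose, rose from 26.4, 24.7 and 28.2 CPM to 54.0, 50.4 and 48 CPM (0.94 ± 0.17, edgeR adjusted p = 6.1e-05). DIN10, a carbon-shortage marker, TPS8 and TPS11 of the trehalose phosphate synthase family and the sugar carrier STP1 rose by 0.47 to 1.04. BAM1 (AT3G23920), another beta-amylase, had a log2 change of -0.16, TPS9 of 0.29 and TPS10 (AT1G60140) of 0.30, and none of them was called.

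Iron and phosphate genes had 7 lower and 0 higher calls of 18 (median -0.58). IRT1, the iron transporter of the root surface, measured 74.4, 84.4 and 88.0 CPM at 16 °C and 28.1, 15.2 and 21.7 CPM at 24 °C (-1.92 ± 0.33, edgeR adjusted p = 5.5e-05). FRO2, the ferric reductase that serves it, measured 34.3, 33.4 and 30.3 CPM against 10.3, 4.61 and 7.29 CPM (-2.14 ± 0.38), and PHO1, which loads phosphate into the xylem, fell by 0.84. For both iron genes the groups were well apart. Without 16 °C replicate 1 the median of the list was -0.03 and 6 genes were called lower. IRT1 is itself among the root markers, whose other members had 1 higher and 0 lower calls; their part in these changes was not tested. Nitrogen and sulphur genes had 5 lower and 2 higher calls of 19, with the nitrite reductase NIR1 at 252, 340 and 352 CPM against 152, 176 and 168 CPM (-0.93 ± 0.12) and the sulphate-reducing APR1 and APR2 lower by 0.94 and 0.61.

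Cell cycle genes had 3 higher and 4 lower calls of 16. AUR2, a mitotic kinase, rose from 4.68, 4.91 and 7.23 CPM to 18, 17.2 and 14.4 CPM (1.56 ± 0.22, edgeR adjusted p = 9.3e-07), while the replication genes MCM2, MCM3, MCM7 and PCNA1 fell by 0.48 to 0.68. HTA11, a histone H2A.Z gene of the kind linked to temperature sensing, fell by 0.78 and HTA9, another, rose by 0.45, the latter call being lost without 16 °C replicate 2 or 3 or 24 °C replicate 1. The floral organ genes PI and SEP3, listed as markers of another organ, measured 0.123 to 0.515 CPM at 16 °C and 1.12 to 2.2 CPM at 24 °C, and both were called higher (2.48 and 1.99). Cytosolic ribosomal protein genes had 19 lower and 4 higher calls of 110 (median -0.16), a share of 20.9% beside 22.8% of all genes. The lower calls were 5 without 16 °C replicate 3 or 24 °C replicate 1, 7 without 16 °C replicate 2, 11 without 24 °C replicate 2, 11 with the rRNA share as covariate (12 higher) and 31 with the 6 libraries alone.

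Outside the functional lists, the named genes with the largest changes included NAS2 and CYP82C4, which act in iron handling and in root iron-deficiency coumarin synthesis. NAS2 measured 21.6, 9.76 and 13.2 CPM at 16 °C and 1.02, 0.539 and 0.826 CPM at 24 °C (-4.22 ± 0.50, edgeR adjusted p = 1.1e-07), and CYP82C4 12.6, 13.9 and 18 CPM against 1.82, 1.12 and 1.37 CPM (-3.37 ± 0.51). AACT1 (AT5G61160), an acyltransferase, measured 29.6, 8.64 and 1.01 CPM against 0.174, 0.422 and 0.304 CPM (-5.42 ± 1.17), and the mitochondrial carrier DIC2 316, 99.4 and 26.8 CPM against 4.53, 3.91 and 10.3 CPM (-4.56 ± 0.84). The calls for AACT1 (AT5G61160), DIC2, RTFL12, CAF1a, ORA47 and ACS6, all highest in 16 °C replicate 1, were lost in the fit of the 6 libraries alone. Among the genes that rose were SQE6, a squalene epoxidase, from 13.5, 7.73 and 6.45 CPM to 40.1, 35.6 and 37.6 CPM (2.03 ± 0.20, edgeR adjusted p = 6.2e-10), TPX2 (AT1G65970), a thioredoxin-dependent peroxidase with near-identical copies (2.17 ± 0.30), and AtLEA4-1, a late embryogenesis protein (2.22 ± 0.30). ICL, isocitrate lyase of the glyoxylate cycle that serves seed oil use, measured 59.6, 61.7 and 98.6 CPM against 306, 396 and 243 CPM (2.1 ± 0.55). Of 11 seed reserve markers 1, EM6, was called higher and its call was lost without 16 °C replicate 1; the seed storage gene CRA1 ran from 5.99 to 65.7 CPM at 16 °C and from 43.7 to 203 CPM at 24 °C. Their part in the changes of ICL and the late embryogenesis genes was not tested.

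Most genes called at light 10 moved the same way in the Col-0 libraries of light 100. Of the 2610 genes called higher 92.0% had a positive change at light 100 and 69.8% were called there (51.0% and 18.9% of all tested genes). Of the 2603 called lower 88.3% had a negative change and 63.3% were called (48.8% and 17.0%). Warmth called 35.9% of all tested genes at light 100. The effect itself differed between lights for 1636 genes (7.17%; 4.55% more positive and 2.62% more negative at light 100), a test that uses both sets of libraries. The aliphatic glucosinolate genes had a median of -0.57 at light 100 and -2.27 at light 10, and for 13 of 26 the effect was more positive at light 100 and for 1 more negative. MAM1 measured 157, 179 and 162 CPM at 16 °C and 147, 150 and 149 CPM at 24 °C at light 100, a difference between the effects of 3.5 ± 0.49.

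TGG2 changed direction with light. At light 100 it measured 206, 199 and 184 CPM at 16 °C and 623, 670 and 690 CPM at 24 °C, a rise of 1.75, against the fall of 2.21 at light 10 (difference 3.96 ± 0.24, edgeR adjusted p = 2.7e-15). COR413-IM1 had a log2 change of 0.08 at light 100 and -2.27 at light 10 (difference 2.35 ± 0.23). GWD1 rose by 0.34 at light 100 and fell by 1.08 at light 10 (difference 1.42 ± 0.18), whereas GBSS1 fell by 0.54 at light 100 and rose by 0.94 at light 10 (difference -1.48 ± 0.24). Clock genes showed 21 higher and 0 lower calls at light 100; PRR7, which did not pass at light 10, rose by 1.84 there, and FKF1 and PRR5, which fell at light 10, rose by 0.60 and 0.65. MYBL2 rose by 3.44 at light 100 against 0.92 at light 10. HSP70 had a log2 change of 0.05 at light 100, where its 16 °C libraries ran from 17.3 to 132 CPM. ESM1 fell by 1.84 at light 10 and by 1.87 at light 100, a difference of -0.03 ± 0.19.

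**Figure D4:**
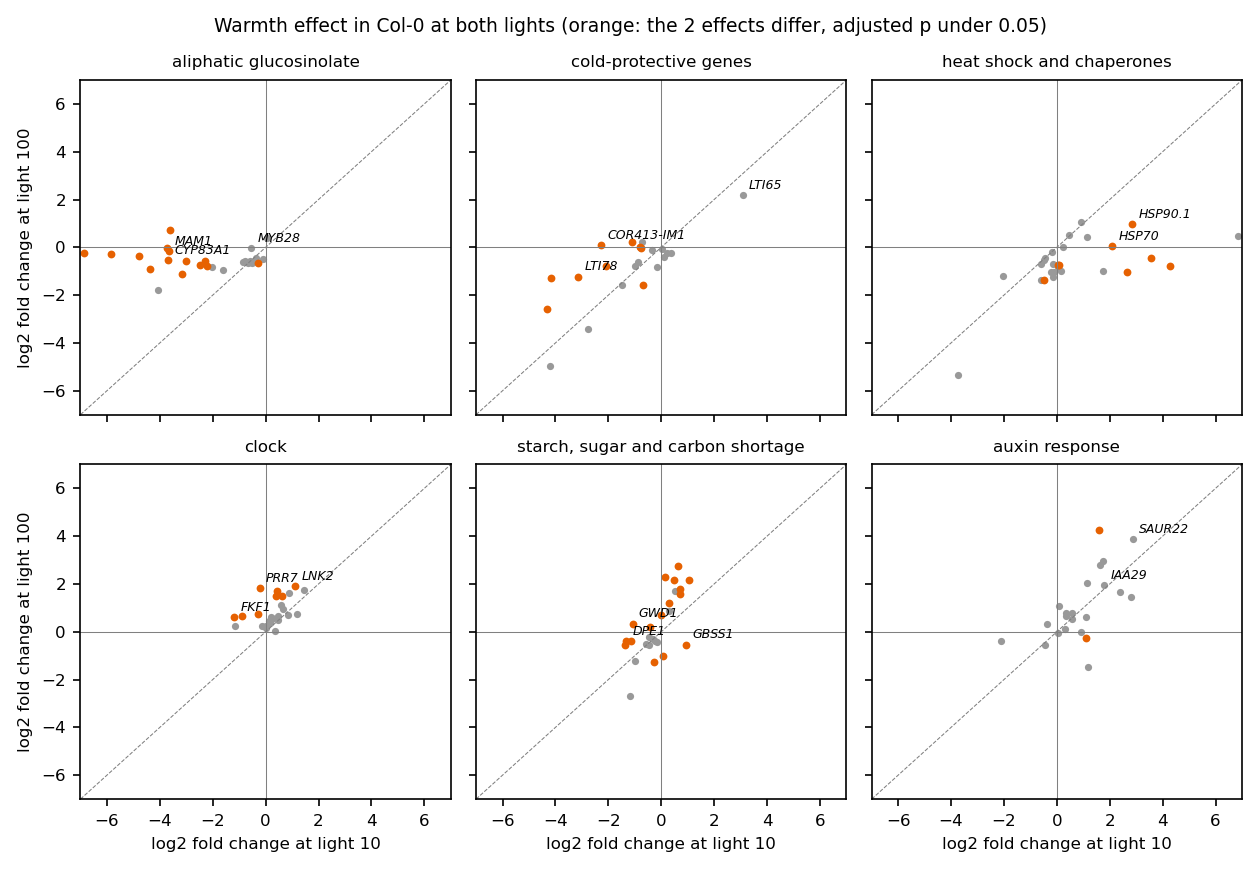
Log2 fold change with warmth in Col-0 at light 10 (x axis) and light 100 (y axis) for members of 6 lists; orange points are genes whose effects differed between lights at an edgeR adjusted p under 0.05 and the dashed line marks equal effects. Aliphatic glucosinolate genes spread along the x axis, as MAM1 does at -3.66 and -0.16, while SAUR22 rose at both lights.

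The same temperatures were compared at light 10 in the libraries labelled Atpif4-2, Atphyb-9 and Athy5-2, and the gene each line is named for was checked. PIF4 measured 50.3 to 52.0 CPM at 16 °C and 78.9 to 91.0 CPM at 24 °C in Col-0 and 22 to 29.6 CPM in Atpif4-2. PHYB measured 34.0 to 38.5 CPM in Col-0 and 25.2 to 29.7 CPM in Atphyb-9, but also 24.1 to 31.9 CPM in the Athy5-2 libraries of 16 °C. HY5 measured 5.06 to 7.19 CPM in Col-0, 2.39 to 2.74 CPM in the Athy5-2 libraries of 24 °C and 4.36 to 6.29 CPM in those labelled Athy5-2 at 16 °C, which HY5 therefore did not set apart from Col-0. Directions for the libraries labelled Athy5-2 carry that limit.

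Of the genes called higher in Col-0, 74.7% had a positive change in Atpif4-2, 69.2% in Atphyb-9 and 74.8% in the libraries labelled Athy5-2, against 49.4%, 51.0% and 48.1% of all tested genes. Of those called lower, 77.4%, 65.8% and 73.6% had a negative one, against 49.6%, 48.1% and 50.8% of all tested genes. The warmth effect differed from that of Col-0 for 2879 genes (12.6%) in Atpif4-2, 3294 (14.4%) in Atphyb-9 and 5078 (22.2%) in the libraries labelled Athy5-2. In the latter, nuclear rRNA took 1.93% to 9.44% of counts at 16 °C and 16.5% to 21.8% at 24 °C; with the rRNA share as covariate 3673 genes were called and 2411 of the 5078 were kept, 2 of them with the direction reversed. By its own test, warmth called 27.7% of genes in Atpif4-2 (13.8% higher and 13.9% lower), 23.0% in Atphyb-9 (10.9% and 12.2%) and 41.1% in the libraries labelled Athy5-2 (19.7% and 21.4%). For 13 of 26 aliphatic glucosinolate genes the effect was more positive in Atpif4-2 than in Col-0 and for 0 more negative (6.37% and 6.24% of all genes), for 22 and 0 in Atphyb-9 (6.76% and 7.67%) and for 19 and 1 in Athy5-2 (11% and 11.3%). For 17 of 22 auxin response genes the effect was more negative in Atphyb-9 and for 0 more positive. These 3 tests share the 6 Col-0 libraries, so each line's own values are given side by side. LTI78 changed by -3.15 in Col-0, -3.34 in Atpif4-2, -1.79 in Atphyb-9 and -2.14 in Athy5-2, and COR413-IM1 by -2.27, -2.55, 0.04 and -1.18. MAM1 changed by -3.66, -1.36, 1.74 and -0.30 in the same order. YUC8 changed by 1.66, 1.03, -0.36 and 1.22, and SAUR22 by 2.87, 0.01, -0.45 and 0.07. LHCB2.2 rose by 0.82 in Col-0 and fell by 1.06, 1.79 and 0.59 in the other lines. IRT1 fell in every line, by 1.92, 1.51, 1.94 and 1.63.

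**Figure D5:**
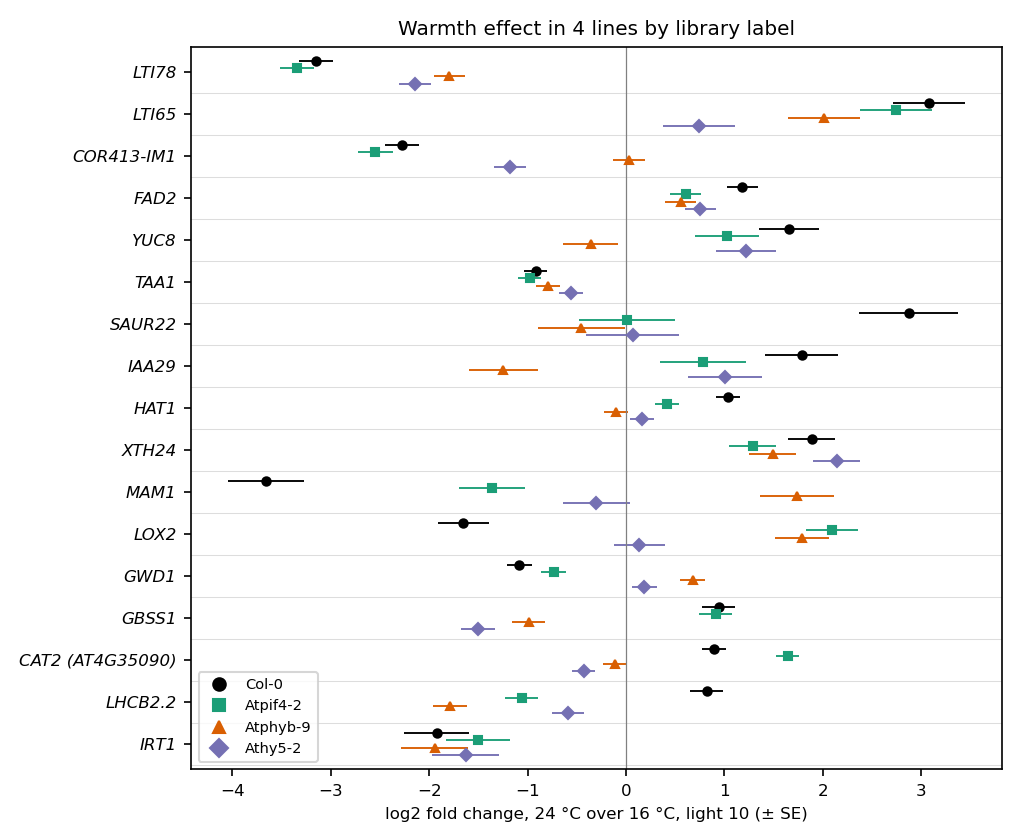
Warmth effect at light 10 (x axis, log2 fold change of 24 °C over 16 °C ± SE) for 17 genes in 4 lines named by their library labels, each from 3 libraries per temperature. IRT1 was below 0 in all 4 lines, while LHCB2.2 was above 0 in Col-0 at 0.82 and below 0 in the others.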

How the data were processed

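Total RNA of whole Arabidopsis seedlings was sequenced as 100 bp paired-end reads on DNBseq, per the labels. The authors deposited counts per gene for each library, and HISAT2 2.1.0 and FastQC 0.11.5 are named, per the submitters' processing notes. For the counting program, its strand setting, the genome build and the annotation, the entry is "not given in the sources used here", so reads of a gene and of an overlapping or antisense gene cannot be told apart. Identifiers were matched to RefSeq (TAIR10.1) for 32548 of 32833 genes, of which 10811 had a symbol.

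Counts of all 48 Arabidopsis libraries entered a single edgeR 4.0.16 quasi-likelihood fit (R 4.3.3, limma 3.58.1) with 16 group means, TMM scaling and robust dispersion. The filterByExpr filter with a minimum count of 10 kept 22828 genes. The fit had 32 residual degrees of freedom and a common biological coefficient of variation of 0.204. Calls have a Benjamini-Hochberg adjusted p under 0.05, over all tested genes. Effects were compared by interaction contrasts. The labels do not say whether the 3 replicates of a group came from separate cultures, so the spread between them may be technical. The p-values rest on that spread pooled over all 16 groups, and not on the spread of the compared libraries alone.

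The comparison and the gene lists were chosen with earlier results of these data known. Of the called genes with a symbol, a mean of at least 5 CPM and no overlap, the 12 highest and the 12 lowest changes were candidates for naming, with the 6 most abundant, up to 6 per list by smallest adjusted p, and PIF4, PHYB and HY5. For differences the 3 highest and the 3 lowest were named, also only among genes with a symbol and that level. For these, no overlap was required in either set compared or in both. Other genes, including those named as not called, were chosen after their values were seen. Alternatives were RLE scaling, no filter, DESeq2 1.42.0, a replicate block, the rRNA share as covariate, removal of rRNA and organelle genes, only the compared libraries, and leaving out each replicate.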

Additional observations from a re-analysis of the deposited data

Results flagged for a closer look

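The genes below had warmth effects, 24 °C over 16 °C on the log2 scale, that differed between Col-0 at light 10 and another set of libraries by an edgeR interaction test. They are the 3 highest and 3 lowest called differences of each comparison within a subset of genes. Each gene of the subset has a symbol and averages 5 CPM or more over the libraries compared. Its temperatures did not overlap in Col-0 at light 10, in the other set, or in both. Genes outside the subset could differ more. Against Atpif4-2, TT8 differed by 6.63 and ACS8 by 5.05, beside 3.47 for DIC2. The comparisons share the Col-0 libraries of light 10.

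Between lights, SP1L2 rose by 1.33 at light 10 and fell by 1.15 at light 100, a difference of -2.48 ± 0.34 (SE). HSP70 differed by -2.04 and TBL26 by -1.90, the latter with effects of -0.64 at light 10 and -2.54 at light 100. AACT1 (AT5G61160) differed by 5.30, BCAT4 by 5.54 and CYP79F1, an aliphatic glucosinolate enzyme, by 6.61, each being lower with warmth at light 10. BCAT4 measured 73.0, 76.5 and 78.4 CPM at 16 °C and 56.2, 63.6 and 66.3 CPM at 24 °C under light 100.

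Against Atpif4-2, the desaturase ADS1 (AT1G06080) differed by -2.45, J11 and OFP16 each by -2.0. DIC2 differed by 3.47 and CYP79F1 by 5.68. LOX2 fell by 1.65 in Col-0 and rose by 2.09 in Atpif4-2, a difference of 3.74 ± 0.37.

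Against Atphyb-9, ADS1 (AT1G06080) differed by -4.16, ACS8 by -3.59 and IAA29 by -3.03, IAA29 rising by 1.78 in Col-0 and falling by 1.25 in Atphyb-9. RTFL12 differed by 5.74, DIC2 by 6.46 and AACT1 (AT5G61160) by 8.84, all 3 being genes whose Col-0 call was lost in the fit of the Col-0 libraries alone.

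Against the libraries labelled Athy5-2, COL2 differed by -2.88, LHCB2.3 by -2.65 and GBSS1 by -2.44. AACT1 (AT5G61160) differed by 12.99. MOT2 differed by 14.61 and NATA1 by 16.44, and these fitted values depend on the prior count, since both genes were at 0 in all 3 libraries labelled Athy5-2 at 16 °C. In those labelled Athy5-2 at 24 °C MOT2 measured 34.2, 4.47 and 100 CPM and NATA1 84.7, 10.5 and 7.40 CPM.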

How the results depend on the processing

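The 5213 warmth calls of Col-0 at light 10 became 5220 with RLE scaling, 4795 with no filter and 5748 with DESeq2. They became 5354 with the rRNA share as covariate (4557 of the calls kept) and 5226 without rRNA and organelle genes. With the 6 libraries alone 4930 genes were called (4238 of the calls kept), and 3806 to 4771 when each library was left out. No call of this comparison kept in these fits reversed. Same-numbered replicates at the 2 temperatures did not deviate together (r of 0.011, -0.0090 and -0.055), and over all 45 pairs of the groups compared 0 had every r over 0.1; at 16 °C in Col-0 r between the lights was 0.128, 0.050 and 0.138. These correlations run over all tested genes and cannot show whether same-numbered samples share a batch that affects some genes, which was not tested. With the replicate block 5134 genes were called, and 1568, 2853, 3245 and 4992 for the differences with light 100, Atpif4-2, Atphyb-9 and Athy5-2. For the difference between lights, 2816 genes were called with the compared libraries alone, and 1029 to 1540 when each library was left out, the lowest without the light 100 library of 24 °C replicate 1. For Atpif4-2 the counts without each library were 1918 to 3382, the lowest without its 24 °C replicate 1; for Atphyb-9 they were 2546 to 3100. For Athy5-2, 2824 genes were called with the compared libraries alone and 4187 to 5295 without each library, and 3673 with the rRNA share as covariate (2667 calls lost). Among lists, counts moved by over 1.5 times also for gibberellin (7 higher, 4 without 24 °C replicate 2), cell wall (5 lower, 3 without 24 °C replicate 1), clock (4 lower, 2 without 24 °C replicate 2), chlorophyll (5 lower, 3 without 16 °C replicate 2 or 3 or 24 °C replicate 2), cell cycle (4 lower, 2 without 16 °C or 24 °C replicate 2) and abscisic acid genes (4 higher, 9 with the 6 libraries alone). The cause of these shifts was not tested. Over the 218 named genes and all alternatives, 2710 values kept their side of the threshold, 107 lost the call and 0 reversed. A reversal was counted only where the gene was called in the main fit or in the alternative. Of these 107 lost calls, 26 were lost with the 6 libraries alone and 23 without 16 °C replicate 1. The 218 are the candidates for naming and not every gene named above. Apart from PIF4, PHYB and HY5 they were chosen because the main fit called them, so that the choice itself favoured keeping the call. Of all 5213 calls, 975 were lost with the 6 libraries alone and 1102 to 1498 when each of these libraries was left out. Sequencing depth and 3 replicates limit what genes of low count can show.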
